A study of Mus musculus with 12 samples.

Results

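The genes described here are those encoded by the mitochondrial genome, taken as every row of the deposited count table whose chromosome is MT. There are 37 such genes among 55586 rows: 13 messenger RNA genes, 2 ribosomal RNA genes and 22 transfer RNA genes. They were measured by RNA-seq of total RNA from mouse peritoneal macrophages cultured in RPMI 1640 with fetal bovine serum, in 12 libraries that fall into 4 groups of 3. The groups are untreated control, IFN-gamma (interferon gamma, the cytokine that activates macrophages), Remodelin (as its hydrobromide salt, a small molecule described as an inhibitor of the RNA acetyltransferase NAT10), and Remodelin with IFN-gamma, called the combined group below. In the combined group Remodelin came before IFN-gamma. Dose, time, strain, age and the number of animals were not given in the sources used here, and nothing says that libraries of a group came from separate animals, so each p-value below rests on library-to-library spread alone, and part of that spread may be technical.

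The mitochondrial genome encodes core subunits of the respiratory chain and of ATP synthase, together with the ribosomal and transfer RNAs that translate them inside the organelle. Both strands are copied into long precursors by the polymerase Polrmt with Tfam, and the transfer RNAs that lie between the other genes are cut out by RNase P and Elac2, which releases the neighbouring RNAs as well. All genes of one strand therefore start from shared precursors, and their separate levels depend strongly on how each RNA is cut and how long it lasts.

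As annotated in the counts, 28 of the 37 genes lie on the plus strand and 9 on the minus strand. The minus-strand genes are mt-Nd6, the sole messenger RNA of that strand, and the transfer RNAs mt-Tq, mt-Ta, mt-Tn, mt-Tc, mt-Ty, mt-Ts1, mt-Te and mt-Tp. Start, end and strand matched the GENCODE M21 annotation of build GRCm38 for 37 of 37 genes, and GENCODE M21 transcripts are the source of the sequences printed here. In every library 92.2% to 98.1% of transfer RNA reads came from mt-Tp, mt-Tn and mt-Tc, which carry proline, asparagine and cysteine. In the main edgeR fit described below, mt-Tp and mt-Tn are the 2 genes of the set that passed the test in any comparison. Other settings and the authors' own comparisons called further members. Each of these 3 transfer RNAs is shown from its 5′ end as encoded, with the anticodon in capitals.
mt-Tp: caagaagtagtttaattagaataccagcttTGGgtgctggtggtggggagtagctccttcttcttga
mt-Tn: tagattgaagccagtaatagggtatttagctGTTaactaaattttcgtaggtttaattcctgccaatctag
mt-Tc: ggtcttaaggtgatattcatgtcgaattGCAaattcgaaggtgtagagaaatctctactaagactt
The gene mt-Tp is 67 bases long and spans bases 15356 to 15422 of MT, the last gene of the annotation. The gene mt-Tn spans 5089 to 5159 and mt-Tc spans 5192 to 5257, so that this pair lies between mt-Nd2 and mt-Co1. None of the 3 overlaps another annotated gene. Without a known strand setting, reads from the opposite strand at these genes cannot be told apart from their own, and whether the reads came from mature transfer RNAs or from longer precursors was not tested.

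Library totals ran from 15917454 to 19418665 counts over all genes. The summed macrophage markers stood at 15000 to 25300 CPM (counts scaled to a common library size with the library's TMM factor) in every library, and markers of large peritoneal macrophages at 87 to 140 CPM. Most of the macrophage sum came from Lyz2 (12670 to 23170 CPM) and most of the large peritoneal macrophage sum from Cd5l (62.2 to 120 CPM). Timd4, also on the latter list, stood at 0 to 0.12 CPM. Of the other cells that could be present, T-cell markers were at 0 to 0.623 CPM and mast-cell markers at 0.365 to 2.68 CPM. Erythroid markers stood at 13.5 CPM in control library 2 and at 0 to 1.72 CPM in the 11 other libraries. B-cell markers were at 5.42 to 6.76 CPM in the 6 libraries without Remodelin and 4.62 to 5.13 CPM in the 6 with it. The summed neutrophil markers were at 45.8 to 55.1 CPM in the 6 libraries without Remodelin and 28 to 33.7 CPM in those with it, and the mesothelial and stromal markers at 98.9 to 144 and 43.7 to 67.8 CPM. The neutrophil difference lay mostly in Mmp9 (13.18 to 25.67 CPM without Remodelin, 3.872 to 11.13 with it) and Mmp8 (7.656 to 10.97, 2.766 to 6.807). S100a8 overlapped (14.63 to 26.86, 13.44 to 22.86). The mesothelial and stromal difference lay mostly in Upk3b (37.56 to 59.4, 11.12 to 16.6) and Col3a1 (36.7 to 76.34, 16.49 to 31.51). Krt18 and Msln had higher means with Remodelin. Whether fewer such cells were present was not tested, nor was the part of these other cells in the results below. The labels name IFN-gamma, but its textbook targets did not pass the test: of 9 such genes, chosen after the files were opened (Irf1, Socs1, Gbp2, Gbp5, Irgm1, Igtp, Cxcl9, Cxcl10 and Ciita), 8 were tested and 0 were called in IFN-gamma against control by edgeR, DESeq2 or limma-voom. Their lowest adjusted p by edgeR was 0.889, 0 had an unadjusted p under 0.05, and the median log2 fold change was -0.01. In the combined group against Remodelin 0 were called (lowest adjusted p 0.636), but 7 of the 8 had values above 0, with a median of 0.36, and 1 had an unadjusted p under 0.05. That gene is Gbp2, a guanylate-binding GTPase, at 6.09 to 6.59 CPM in Remodelin and 10.4 to 11.9 CPM in the combined group, without overlap (log2 fold change 0.81 ± 0.17, adjusted p = 0.636). Irf1, an early transcription factor of the response, averaged 20.3 ± 1.96 CPM in the control libraries and 22.1 ± 4.09 CPM in the IFN-gamma libraries (SD, n = 3). Gbp2 (6.19 to 7.49 CPM in control, 7.98 to 8.76 in IFN-gamma) and Irgm1 (14.93 to 20.15, 21.23 to 24.9) were higher in IFN-gamma without overlap. Socs1 was lower without overlap (2.99 to 3.58 CPM in control, 2.55 to 2.83 in IFN-gamma). Of all genes, 9.18% were higher and 8.51% lower without overlap in that comparison. Every statement on IFN-gamma below is on the libraries labelled so. Expression of Nat10 is no check on its inhibition.

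Of the 37 genes, 23 passed the filter on low counts and were tested: 12 messenger RNAs, both ribosomal RNAs and 9 transfer RNAs. The 14 others were mt-Atp8, with 22 reads in all libraries together, and 13 transfer RNAs with 0 to 29 reads each. Among these, mt-Tf, mt-Ts1, mt-Td and mt-Tk had no read in any library, where 3 counts correspond to 0.152 to 0.192 CPM. Mature transfer RNAs are short and heavily modified, and these standard libraries were not built for them. Zero reads at a transfer RNA gene therefore says little about how much of it the cells hold.

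Together the 37 genes took 0.339% to 0.894% of all counts. The 3 control libraries had 0.465%, 0.687% and 0.339%, a mean of 0.497% ± 0.176 (SD, n = 3). The IFN-gamma libraries had 0.695%, 0.780% and 0.756%, and lay above all control libraries, although the highest control library came just under the lowest of them. Remodelin libraries had 0.421%, 0.521% and 0.689%, and the combined libraries 0.894%, 0.787% and 0.570%, so that both overlapped control, and the Remodelin libraries lay just under all IFN-gamma libraries. Messenger RNAs made up 90.7% to 96.1% of these counts, ribosomal RNAs 2.82% to 6.06% and transfer RNAs 1.09% to 3.33%. The counting options and any removal of ribosomal RNA were not given in the sources used here, so the share of ribosomal RNA is that of the deposited table and not of the cells.

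**Figure D1:**
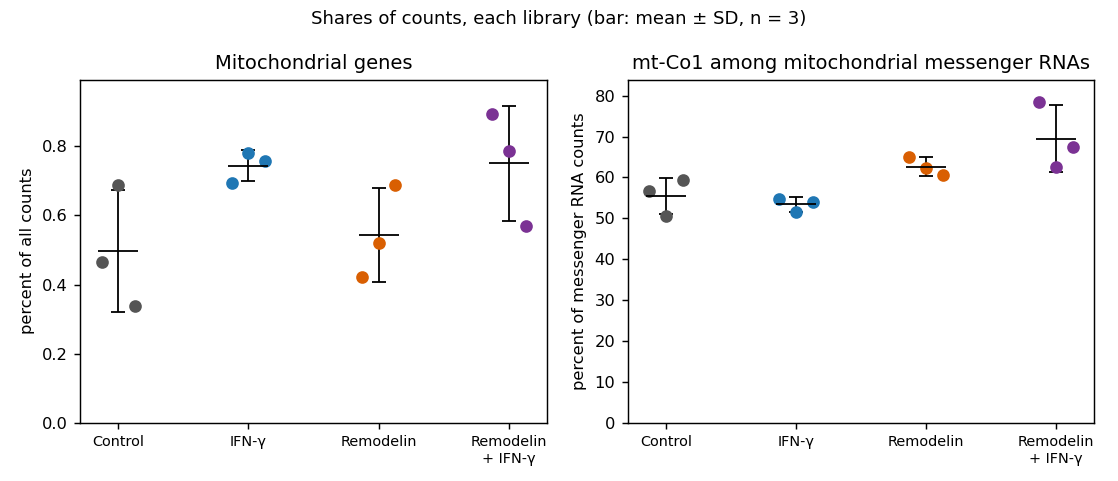
Percent of all counts that fell on the 37 mitochondrial genes (left) and percent of mitochondrial messenger RNA counts that fell on mt-Co1 (right), one point per library, with the mean and SD of 3 libraries per group. The control libraries ranged from 0.339% to 0.687% on the left, and on the right the 6 libraries with Remodelin (60.7% to 78.5%) all lay above the 6 without (50.6% to 59.3%).

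Levels per length, in CPM per kb averaged over each group, spanned a wide range along the genome. The highest messenger RNA was mt-Co1, the catalytic subunit of cytochrome c oxidase, at 1632 ± 508 CPM per kb in control (SD, n = 3). By mean CPM over the 12 libraries it ranked 24 among the 55586 rows. Other high messenger RNAs in control were mt-Nd1 (694 ± 420 CPM per kb) and mt-Nd2 (319 ± 94.6), subunits of complex I, and mt-Cytb (405 ± 196), the cytochrome b of complex III. Complex I subunits mt-Nd5 and mt-Nd4 stood at 175 ± 83.3 and 151 ± 99.2 CPM per kb, and mt-Nd6 at 162 ± 77.2, with spreads that overlap. The lowest messenger RNA that passed the filter was mt-Nd4l, another complex I subunit, at 3.32 ± 2.34 CPM per kb. Levels of mt-Co2 (21.8 ± 8.62), mt-Co3 (24.3 ± 10.4), mt-Nd3 (16.96 ± 10.6) and mt-Atp6 (13.7 ± 9.08) were also far below that of mt-Co1.

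**Figure D2:**
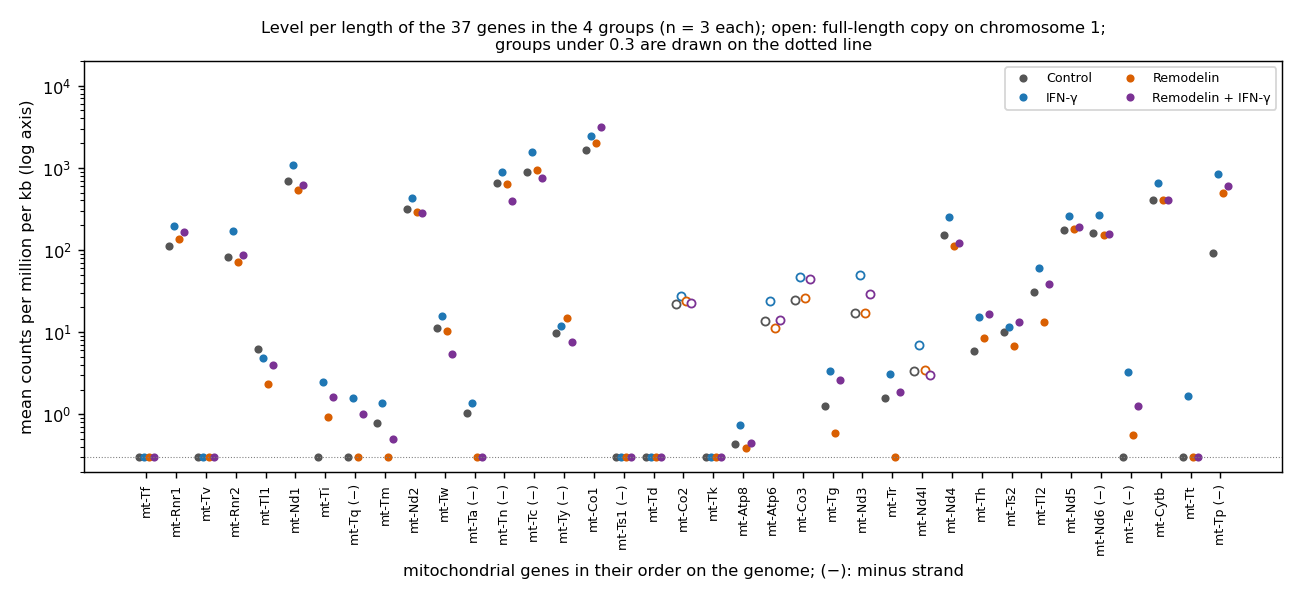
Mean CPM per kb of each of the 37 genes in the order in which they lie on the mitochondrial genome, on a log axis, for the 4 groups of 3 libraries. Open points are the 5 genes with a full-length or nearly full-length copy on chromosome 1, and in control they lie between 3.32 and 24.3 CPM per kb, under every other tested messenger RNA.

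The tested messenger RNAs with the lowest levels share a feature of their sequence. This does not cover mt-Atp8, which was lower still at 22 reads in all libraries together and failed the filter. In GRCm38, chromosome 1 holds a stretch of mitochondrial sequence that is annotated as a row of pseudogenes, and those pseudogenes have rows of their own in the count table. Gm28661 is identical to mt-Co2 over 681 of 684 bases, Gm10925 to mt-Atp6 over 678 of 681, Gm28437 to mt-Co3 over 783 of 784 and Gm10222 to mt-Nd4l over 294 of 297. Gm28438 differs from mt-Nd3 by 1 base in 345, T3C, with positions counted from the first base of the mitochondrial gene. Further copies cover part of a gene: Gm28439 equals the first 876 bases of mt-Nd4, and Gm29216 covers the last 483 bases of mt-Co1 with 1 difference, A1066T. On chromosome 2, Gm13340 aligns to mt-Co1 and Gm13341 to mt-Co2 over the whole gene, but with more differences. Their identity is 97.6% and 95.9%, and the longest identical stretches are 148 and 173 bases. The starts of both pairs with 1 difference are shown to make plain how little parts them, with the differing base in capitals. The mt-Nd3 pair begins at base 1 of mt-Nd3 and the mt-Co1 pair at base 1063 of mt-Co1.
mt-Nd3: atTaacctgtacactgttatctt
Gm28438: atCaacctgtacactgttatctt
mt-Co1: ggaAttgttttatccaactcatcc
Gm29216: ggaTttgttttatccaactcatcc
A read that falls within an identical stretch fits both places equally well, and how the authors' counting treated such reads was not given in the sources used here.

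For the full-length pairs on chromosome 1, counts at gene and copy were of the same order, and how close they were varied by pair. Over the 12 libraries mt-Atp6 had 2286 reads and Gm10925 had 2298, and the ratio in single libraries ran from 0.731 to 1.17. For mt-Co2 the sums were 3483 and 2475, for mt-Co3 5897 and 3641, for mt-Nd3 2112 and 896, and for mt-Nd4l 264 and 197. In single libraries mt-Nd3 had 0.938 to 4.10 times the reads of its copy and mt-Nd4l 0.667 to 3.5 times, while mt-Co2 and mt-Co3 lay between 1.23 and 1.93 times. The genes copied there in part were different: mt-Nd4 had 46447 reads against 348 at Gm28439, and mt-Co1 had 746943 against 1970 at Gm29216. The chromosome 2 copies, which differ more, had 277 reads at Gm13340 (mt-Co1) and 11 at Gm13341 (mt-Co2). Levels of the 5 genes copied over their length on chromosome 1 are therefore uncertain, and their counts are best read with those of their copies. With the copies' counts added, a setting chosen after seeing the data, the median log2 fold change of the 23 tested genes in IFN-gamma against control was 0.69 in place of 0.72, and mt-Tp remained the called gene there.

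**Figure D3:**
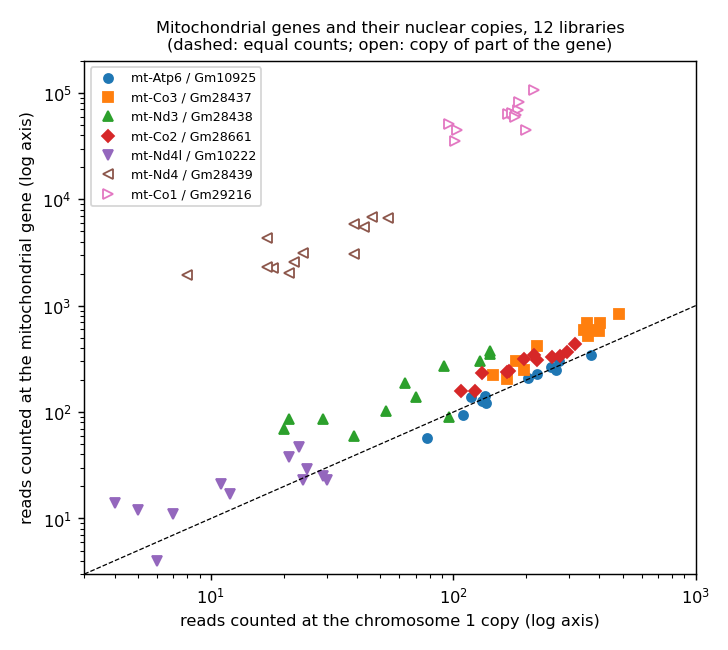
Reads counted at each mitochondrial gene (vertical) against reads at its chromosome 1 copy (horizontal), both on log axes, one point per library and gene pair. Filled points, the pairs copied over their length, lie around or above the dashed line of equal counts, from 0.667 times (mt-Nd4l) to 4.10 times (mt-Nd3) the copy's reads, whereas mt-Nd4 and mt-Co1 (open), copied in part, lie far above it.

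The transfer RNA for proline, mt-Tp, was higher in each treated group than in control. It had 180, 102 and 68 reads in the control libraries, or 9.11, 5.54 and 3.69 CPM. In the IFN-gamma libraries it stood at 49.5, 62.6 and 55.4 CPM, and in the Remodelin libraries at 30.6, 33.0 and 36.4 CPM. The combined libraries had 38.8, 60.0 and 21.3 CPM. All 9 treated libraries were thus above all 3 control libraries, and the combined group was the most spread. In bulk RNA a larger number of cells of one kind and more RNA per cell cannot be told apart.

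By edgeR's quasi-likelihood test over 13474 genes, with Benjamini-Hochberg adjustment, mt-Tp rose in Remodelin against control by 2.44 ± 0.32 on the log2 scale (SE), a 5.43-fold difference, with an adjusted p of 0.00112. It was the single member called of 23 tested, where 0.846% of all genes were called. In IFN-gamma against control it rose by 3.19 ± 0.33, or 9.10-fold, with an adjusted p of 0.000304. Here 0.0148% of all genes were called, which is 2 genes, and mt-Tp had the smallest p of them. The other gene was Gm17066, at 0.550 ± 0.136 CPM in control and 2.39 ± 0.521 CPM in IFN-gamma (log2 fold change 2.11 ± 0.33, adjusted p = 0.0488), and it is named here because its values were seen. These comparisons share the control libraries. Leaving out any 1 library of the groups compared kept both calls, with adjusted p up to 0.0213 for Remodelin and 0.0118 for IFN-gamma. Leaving out control library 2 and combined library 1 together, chosen after seeing the data, gave 0.028 and 0.0616.

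Between the treated groups mt-Tp did not pass the test. The combined group was 0.48 ± 0.30 lower than IFN-gamma on the log2 scale (log2 fold change -0.48, adjusted p = 0.421) and 0.27 ± 0.30 above Remodelin (adjusted p = 0.792). The order of the group means was control at 91.3 ± 41.1 CPM per kb, Remodelin at 497 ± 43.5, combined at 597 ± 289 and IFN-gamma at 833 ± 98.2 (SD, n = 3). Only the step from control to the next group passed a test of neighbours in that order. The interaction term, which asks whether Remodelin acted differently with and without IFN-gamma, was -2.92 ± 0.44 for mt-Tp with an adjusted p of 0.0481. It was the only gene called of 13474, or 0.00742%. That call ended in 8 of the 12 fits that leave out 1 library: control 2 or 3, any IFN-gamma library, Remodelin 2 or 3, or combined 1, with adjusted p up to 0.38 without control library 2. Remodelin averaged over both IFN-gamma levels gave 0.98 ± 0.22 (adjusted p = 0.0142; 0.0534 without control library 2 and 0.0511 without IFN-gamma library 1), but the libraries overlapped, and this mean covers a rise without IFN-gamma and a lower value with it.

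Fold changes in the authors' deposited table of comparisons are not directly comparable in size with those of edgeR. For mt-Tl1 in Remodelin against control, for example, the log2 value is -0.21 there and -1.34 by edgeR. The authors' deposited table gives mt-Tp a log2 fold change of 1.82 in Remodelin against control (adjusted p = 1.8e-15) and 2.24 in IFN-gamma against control (adjusted p = 2.55e-39). For the combined group against control that table gives 2.04 (adjusted p = 2.96e-11). Against the groups with a single agent it gives the combined group -0.35 relative to IFN-gamma (adjusted p = 0.289) and 0.15 relative to Remodelin (adjusted p = 1).

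For other members the authors' deposited table holds more calls under an adjusted p of 0.05 than the edgeR fit above. In Remodelin against control mt-Tp is its single member called of 30 with an adjusted p, where 0.195% of all genes in that table are called higher and 0.433% lower. In IFN-gamma against control it calls 5 of 33 members higher and 0 lower, beside 0.413% and 0.18% of all genes: mt-Tp, mt-Rnr1 (log2 fold change 0.68, adjusted p = 0.000263), mt-Nd3 (0.91, 0.000263), mt-Co3 (0.69, 0.00883) and mt-Tc (0.59, 0.0299). In the combined group against IFN-gamma the authors' deposited table calls 9 of 32 members lower and 0 higher, beside 2.19% and 0.7% of all genes: mt-Nd4 (-0.87, adjusted p = 0.000127), mt-Tn (-0.92, 0.000181), mt-Rnr2 (-0.80, 0.000391), mt-Tc, mt-Cytb, mt-Nd1, mt-Nd6, mt-Nd2 and mt-Atp6. For the combined group against control it calls mt-Tp, mt-Co1 and mt-Co3 higher, 3 of 31 with 0 lower, beside 2.09% and 1.39% of all genes. Against Remodelin it calls 0 of 30 members, beside 0.00489% of all genes higher and 0% lower. The edgeR fit called 1 member in IFN-gamma against control and 0 in the combined group against IFN-gamma. The cause of that difference was not tested.

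**Figure D4:**
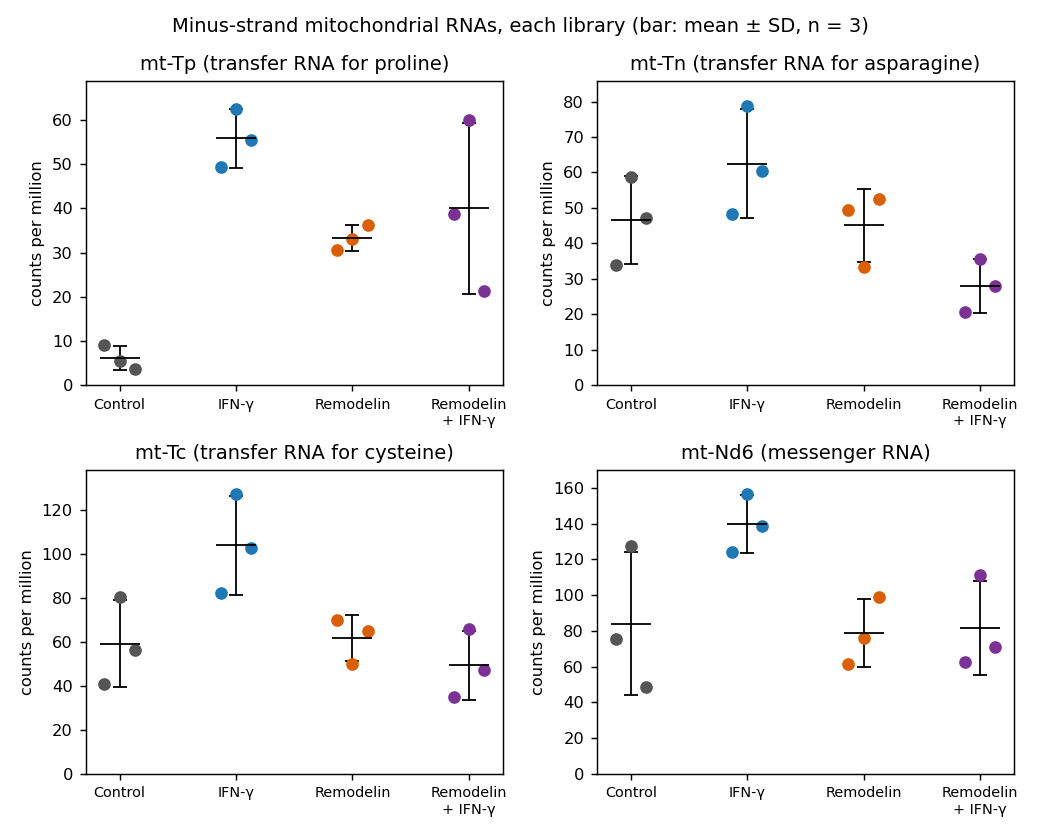
CPM of 4 mitochondrial genes annotated on the minus strand in each library, with the mean and SD of 3 libraries per group. For mt-Tp the control libraries (3.69 to 9.11 CPM) lie under all others (21.3 to 62.6 CPM), whereas mt-Tn, mt-Tc and mt-Nd6 show no such gap between control and the rest.

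Neither mt-Cytb, the nearest tested gene, nor mt-Nd6, the messenger RNA of the same strand, showed the gap between control and all other libraries seen for mt-Tp. In IFN-gamma against control both had log2 fold changes above 0, smaller than that of mt-Tp, and neither was called. The adjacent gene mt-Tt, which carries threonine and lies on the plus strand, had at most 0.340 CPM in any library. With 7 reads in all libraries together mt-Tt failed the filter, and it cannot show whether the pattern of mt-Tp extended there. Next to mt-Tt, mt-Cytb stood at 389, 715 and 286 CPM in control and 370, 433 and 572 CPM in Remodelin. The log2 fold change was -0.02 ± 0.25. In IFN-gamma mt-Cytb had 678, 823 and 721 CPM (log2 fold change against control 0.68 ± 0.26, adjusted p = 0.889). The combined libraries had 504, 517 and 385 CPM. On the minus strand, mt-Nd6 had 75.5, 127 and 48.7 CPM in control, 61.3, 76.2 and 98.8 CPM in Remodelin, 124, 156 and 139 CPM in IFN-gamma and 62.4, 111 and 71.0 CPM in the combined group. Its log2 fold change was -0.09 ± 0.28 in Remodelin against control (adjusted p = 0.903) and 0.74 ± 0.28 in IFN-gamma against control (adjusted p = 0.889). Reads at mt-Tp per read at mt-Nd6 were 0.121, 0.0434 and 0.0758 in control. That ratio was 0.399, 0.400 and 0.399 in IFN-gamma, 0.498, 0.433 and 0.368 in Remodelin, and 0.622, 0.538 and 0.299 in the combined group. Scaled to another gene annotated on the minus strand, then, the control libraries were again the 3 lowest. With the strand setting unknown, reads counted at mt-Nd6 may come from either strand. Of all transfer RNA reads, mt-Tp took 3.38% to 10.3% in control and 19.8% to 40.0% elsewhere.

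The transfer RNAs for asparagine and cysteine, mt-Tn and mt-Tc, lacked the gap that set control apart from all other libraries for mt-Tp. For mt-Tc the control libraries had 40.9, 80.5 and 56.3 CPM. Its log2 fold change in IFN-gamma against control was 0.81 ± 0.25, in the direction of mt-Tp but smaller. That of mt-Tn was 0.42 ± 0.24 (adjusted p = 0.889 for both by edgeR). In control mt-Tn stood at 33.9, 58.7 and 47.2 CPM, in IFN-gamma at 48.3, 78.8 and 60.3 CPM, in Remodelin at 49.3, 33.2 and 52.5 CPM, and in the combined group at 20.5, 35.6 and 27.8 CPM. The combined libraries lay under all IFN-gamma libraries, while the Remodelin and control libraries overlapped. Averaged over both IFN-gamma levels, mt-Tn fell by 0.60 on the log2 scale (SE 0.17, adjusted p = 0.0441). With mt-Tp it makes 2 members called of 23 in that comparison, where 7.04% of all genes were called, so the share of members is near the background. The call for mt-Tn was lost in 9 of the 12 fits that leave out 1 library (adjusted p up to 0.145), and was kept without control 1, Remodelin 1 or combined 2. The summed mesothelial, neutrophil and B-cell markers, given above, were lower in the same 6 libraries, though not every single marker was. Their part in this result was not tested.

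In the combined group against IFN-gamma, mt-Tn had a log2 fold change of -1.16 ± 0.25 and an adjusted p of 0.0501, on the threshold, and mt-Tc -1.07 ± 0.25 with an adjusted p of 0.0741. For mt-Tc the IFN-gamma libraries had 82.1, 127 and 103 CPM and the combined libraries 34.9, 66.0 and 47.4 CPM, without overlap. Of the 13474 genes 0.364% were called here, and of the 23 members 0 by edgeR, with 10 at an unadjusted p under 0.05, where 16.2% of all genes were. DESeq2 called 2 members, mt-Tn and mt-Tc, and limma-voom called 0. The ratio of mt-Tc to mt-Tn counts was 1.19 to 1.37 in control, 1.24 to 1.51 in Remodelin, 1.61 to 1.70 in IFN-gamma and 1.70 to 1.85 in the combined group. All 6 libraries labelled IFN-gamma, alone or combined, had the higher ratios, a description that no test was run on.

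The other transfer RNAs that passed the filter were tested on few reads, 69 to 549 over all libraries. They were mt-Tl1 and mt-Tl2 for leucine, mt-Ts2 for serine, mt-Th for histidine, mt-Tw for tryptophan and mt-Ty for tyrosine. Their SEs in Remodelin against control were 0.51 to 0.86 on the log2 scale, so small differences were not detectable at this depth, and none was called in any comparison of the filtered fit.

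Among the messenger RNAs, 0 were called in each of the 6 comparisons by edgeR. In Remodelin against control the 12 tested ones had a median log2 fold change of -0.01, from -0.45 for mt-Nd4 to 0.31 for mt-Co1, beside a median of 0.01 over all genes. At an unadjusted p under 0.05 there were 0 of them, where 12.7% of all genes were. The groups overlapped for all 12, where 6.09% of all genes were higher in every Remodelin library than in every control library and 10.3% lower. Over all 23 members the median was -0.02. It was 0.40 without control library 2, -0.295 without control library 3 and -0.33 with the GC trend removed. DESeq2 and limma-voom called 0 messenger RNAs in each of the 6 comparisons too.

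In IFN-gamma against control all 12 messenger RNAs had values above 0, with a median log2 fold change of 0.70, beside a median of 0.00 (0.0026) over all genes. At an unadjusted p under 0.05 there were 8 of the 12, where 5.37% of all genes were, but adjusted p-values ran from 0.846 to 0.914. The groups did not overlap for 3 of them, mt-Co1, mt-Co3 and mt-Nd3, all higher in IFN-gamma, where 9.18% of all genes were higher and 8.51% lower without overlap. The complex I subunit mt-Nd3 had the largest difference, 1.56 ± 0.44, with 4.40, 10.1 and 3.20 CPM in control and 15.3, 19.7 and 17.4 CPM in IFN-gamma, and it is one of the genes with a nuclear copy. Control library 2 was the highest control library for all 12, and for several it reached the IFN-gamma range: mt-Nd1 stood at 446, 1128 and 419 CPM in control and at 970, 1231 and 918 CPM in IFN-gamma. Within a library the level moved with the GC content of genes, with Spearman coefficients across genes from -0.690 to 0.550, and mitochondrial genes are low in GC. After removal of that trend the median of the 23 members in IFN-gamma against control was 0.30 in place of 0.72. Leaving out 1 library moved that median from 0.43 without control library 3 to 1.13 without control library 2.

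The combined group against IFN-gamma went the other way for most messenger RNAs. This comparison and IFN-gamma against control share the IFN-gamma libraries on opposite sides, so opposite signs in them are not independent results. Of the 12, 11 had values below 0, with a median log2 fold change of -0.71, beside 0.03 over all genes, and for 8 of them the combined libraries were all lower, where 15.6% of all genes were lower and 12.2% higher without overlap. At an unadjusted p under 0.05 there were 6, with the smallest adjusted p at 0.155 for mt-Nd4 (-1.04 ± 0.32). This complex I subunit had 328, 390 and 312 CPM in IFN-gamma and 140, 225 and 135 CPM in the combined group. The sole messenger RNA above 0 was mt-Co1, at 0.37 ± 0.23 (adjusted p = 0.427). The median of the 23 members was -0.63, with -1.003 without combined library 2 and -0.49 without combined library 3. Scaled to the mitochondrial messenger RNAs without mt-Co1 it was 0.01, beside 0.75 over all genes. In the combined group against Remodelin alone the median of the messenger RNAs was 0.10 and the groups overlapped for all 12, where 5.99% of all genes were higher and 3.49% lower without overlap. Of all genes 0% were called there by edgeR, with 7.74% at an unadjusted p under 0.05, and of the members 0 were called and 3 were at an unadjusted p under 0.05, with 0 called by DESeq2 and by limma-voom.

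Averaged over both IFN-gamma levels, Remodelin gave values below 0 for 11 of 12 messenger RNAs (median -0.37, beside 0.03 over all genes), and the libraries overlapped for all 12, where 1.24% of all genes were higher and 3.42% lower without overlap. The value nearest to a call was that of mt-Nd4, -0.74 ± 0.23 with an adjusted p of 0.0559. With the GC trend removed, mt-Nd4 (-0.95, adjusted p = 0.036) and mt-Nd1 (-0.82, adjusted p = 0.0448) were called lower and mt-Tn was not (adjusted p = 0.0566). Over all 12 alternatives other than leaving out 1 library, the adjusted p of mt-Nd4 ran from 5.22e-06 to 0.517 and that of mt-Nd1 from 0.00102 to 0.766, with 2 calls each.

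**Figure D5:**
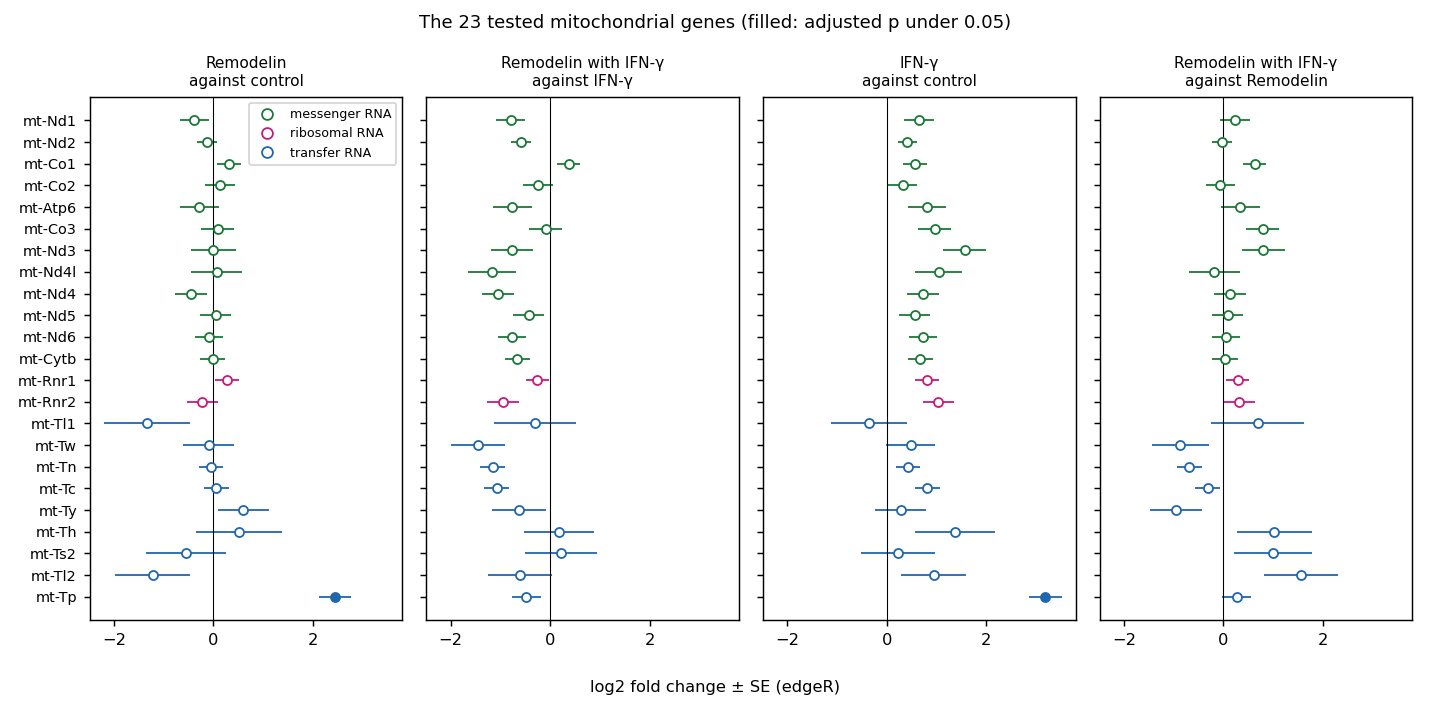
Log2 fold changes with their SE for the 23 tested mitochondrial genes in 4 comparisons, by RNA class, with filled points for an adjusted p under 0.05. The filled points are mt-Tp in Remodelin against control (2.44) and in IFN-gamma against control (3.19), and in the combined group against IFN-gamma most points lie left of 0 with mt-Co1 at 0.37.

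The gene mt-Co1 stood apart from the other messenger RNAs in the libraries with Remodelin. It had 2253, 3405 and 1906 CPM in control and 3611, 3912 and 3672 CPM in IFN-gamma. The Remodelin libraries had 2848, 2955 and 3584 CPM and the combined libraries 6704, 4332 and 3462 CPM. As a level it passed no test: Remodelin averaged over both IFN-gamma levels gave 0.34 ± 0.17 with an adjusted p of 0.198. As a share of mitochondrial messenger RNA counts it was 56.6%, 50.6% and 59.3% in control, 54.8%, 51.4% and 54.0% in IFN-gamma, 65.1%, 62.2% and 60.7% in Remodelin, and 78.5%, 62.6% and 67.4% in the combined group. All 6 libraries with Remodelin were thus above all 6 without it.

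Reads at mt-Co1 per read at mt-Nd1 placed the 6 libraries with Remodelin above the 6 without: 3.02 to 5.05 in control, 3.18 to 3.999 in IFN-gamma, 5.81 to 6.39 in Remodelin and 5.69 to 11.6 in the combined group. This ratio is not separate support for the shares. Both have mt-Co1 as numerator, mt-Nd1 is part of the messenger RNA total, and mt-Nd1 was chosen after its values were seen. Scaled to the other mitochondrial messenger RNAs, a setting chosen after seeing the data, mt-Co1 had a log2 fold change of 0.76 ± 0.29 for Remodelin averaged over both IFN-gamma levels and an adjusted p of 0.108, so that the separation of shares did not pass a test across all genes. Over the 12 alternatives other than leaving out 1 library its adjusted p ran from 0.0675 to 0.85. Without control library 2 and combined library 1, the level difference was 0.35 ± 0.12 (adjusted p = 0.17).

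The ribosomal RNAs were low for molecules so abundant in cells. The small-subunit RNA mt-Rnr1 had 87.3, 132 and 99.9 CPM in control and 192, 188 and 180 CPM in IFN-gamma, without overlap. In Remodelin it stood at 80.9, 114 and 191 CPM and in the combined group at 138, 183 and 148 CPM. The large-subunit RNA mt-Rnr2 had 76.9, 224 and 93.1 CPM in control and 245, 314 and 248 CPM in IFN-gamma, again without overlap. Its Remodelin libraries had 84.2, 101 and 151 CPM and its combined libraries 113, 182 and 124 CPM, all below the IFN-gamma libraries.

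In IFN-gamma against control the log2 fold changes were 0.81 ± 0.24 for mt-Rnr1 and 1.04 ± 0.32 for mt-Rnr2, with unadjusted p of 0.00315 and 0.00441 and an adjusted p of 0.889 for both by edgeR. Counting all classes, the groups did not overlap for 8 of the 23 members in this comparison, all of them higher in IFN-gamma, and for 13 of 23 in the combined group against IFN-gamma, all of them lower, beside the 9.18% and 15.6% of all genes given above. Members of one precursor are not independent of each other. Nor are these comparisons, which share the IFN-gamma libraries on opposite sides. The combined group against IFN-gamma gave -0.95 ± 0.32 for mt-Rnr2 (adjusted p = 0.173) and -0.25 ± 0.24 for mt-Rnr1 (adjusted p = 0.599). Both RNAs lie next to each other on the same precursor, parted by mt-Tv, yet their ratio varied: reads at mt-Rnr2 per read at mt-Rnr1 were 0.881, 1.70 and 0.932 in control, 1.28, 1.68 and 1.38 in IFN-gamma, 1.04, 0.888 and 0.793 in Remodelin, and 0.814, 0.993 and 0.833 in the combined group. The Remodelin and combined libraries lay below all IFN-gamma libraries and overlapped control.

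The nuclear genes that copy, cut, modify and translate these RNAs were taken from 4 lists chosen with earlier results of these data known. Of 78 tested, 0 were called in the 4 comparisons of single groups by edgeR, with 5 at an unadjusted p under 0.05 in Remodelin against control, 7 in combined against IFN-gamma, 4 in IFN-gamma against control and 14 in combined against Remodelin, where 12.7%, 16.2%, 5.37% and 7.74% of all genes were. DESeq2 called 1 of them in combined against IFN-gamma and 0 in the 3 others, and limma-voom 0 in all 4. For Remodelin averaged over both IFN-gamma levels 4 of the 78 were called higher and 0 lower, beside 7.04% of all genes, so their share is under the background. Grsf1, which binds mitochondrial RNA in the granules where precursors are processed, rose by 0.50 ± 0.12 on the log2 scale (adjusted p = 0.0225), the 1 called of 22 tested genes of RNA processing and stability. Its libraries had 27.9, 19.4 and 21.3 CPM in control, 23.2, 21.7 and 24.7 CPM in IFN-gamma, 25.2, 29.1 and 32.4 CPM in Remodelin and 41.5, 33.8 and 34.1 CPM in the combined group. Control library 1 reached into the Remodelin range, and all combined libraries were above all others.

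Of 26 RNA modification genes, 2 rose in that comparison. Trit1, which adds an isopentenyl group to an adenosine of some transfer RNAs, rose by 0.54 ± 0.16 (adjusted p = 0.0466), from 3.42 to 4.62 CPM in the libraries without Remodelin to 4.96 to 7.68 CPM in those with it, without overlap. Mettl15, a methyltransferase of mt-Rnr1, rose by 0.88 ± 0.25 (adjusted p = 0.0419). The release factor gene Mtrf1 was the 1 called of 14 translation factor genes, at 0.81 ± 0.24 (adjusted p = 0.0459). None of the 16 tested genes of transcription and DNA maintenance was called, 2 of the 18 listed having failed the filter. Their median was 0.14, that of RNA processing genes 0.14, of RNA modification genes 0.03 and of translation factors 0.13, beside 0.03 over all genes. The 4 calls are not firm: leaving out each library in turn kept Grsf1 in 7 of 12 fits, Mettl15 in 4, Mtrf1 in 3 and Trit1 in 3, with adjusted p up to 0.0791, 0.122, 0.126 and 0.138. For Grsf1 the libraries whose removal ended the call were control 2 or 3, IFN-gamma 1 or 2, and Remodelin 3. Combined library 1 had the highest level of each, and without it Grsf1 stayed called (adjusted p = 0.0298) and the 3 others did not. With the GC trend removed Mettl15 and Mtrf1 were not called (adjusted p = 0.0793 and 0.0836), and by limma-voom Mtrf1 and Trit1 were not (0.0722 and 0.0534).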

How the data were processed

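Total RNA of 12 libraries was sequenced on an Illumina platform, per the labels' protocols. The submitters' processing notes name CASAVA 1.8, HISAT2 2.0.5 and featureCounts 1.5.0-p3; the sources used here give no genome build, strand setting or handling of reads with several places. The authors deposited raw counts per gene, FPKM values and group means of a normalised signal (neither used in any result), and log2 fold changes with p-values of their own comparisons. Groups and replicate numbers came from the labels.

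Counts were tested with edgeR 4.0.16 in R 4.3.3 (TMM scaling, filterByExpr by group, quasi-likelihood test, 1 fit over all 12 libraries, 6 comparisons, Benjamini-Hochberg adjustment over 13474 genes, called under 0.05), tested on simulated data first. DESeq2 1.42.0, limma-voom (limma 3.58.1), other filters and scalings, a replicate block, a GC correction (loess on 13339 genes with a GC value) and fits without each library were alternatives. CPM values are scaled by the TMM factor. Depth limits the precision of low transfer RNAs, and counts cover counting error only.

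The members and gene lists were chosen with earlier results of these data known. Named are every member called, mt-Tp, both ribosomal RNAs, mt-Nd6, the highest and lowest messenger RNAs, and the called genes of the lists. Other members are given by range and count, and those named beyond the rule (mt-Tc, mt-Cytb, mt-Nd1, mt-Nd3, mt-Nd4, the copied genes) were chosen after their values were seen.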

Additional observations from a re-analysis of the deposited data

Results flagged for a closer look

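The effect of Remodelin on mt-Tp differed between the libraries without and with IFN-gamma. The interaction term of edgeR's quasi-likelihood fit was -2.92 on the log2 scale (SE 0.44, adjusted p = 0.0481): mt-Tp was higher with Remodelin in the absence of IFN-gamma (2.44 ± 0.32) and -0.48 ± 0.30 in its presence. The call was kept in 4 of 12 fits that leave out 1 library.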

How the results depend on the processing

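In Remodelin against control, 1 member (mt-Tp) was called under every setting, and no value named here that was called reversed. Without a count filter, which tests 33 members, edgeR called 8 members in IFN-gamma against control, 7 in the combined group against IFN-gamma, 1 (mt-Tl2) in combined against Remodelin, 9 for Remodelin averaged over both IFN-gamma levels and 3 for the interaction. For mt-Tl2, combined library 2 had 125 reads, the other combined libraries 18 and 10, and the Remodelin libraries 21, 16 and 10. Fits of only the groups compared called 3 in IFN-gamma against control and 3 in combined against IFN-gamma; for the latter DESeq2 called 2, library sizes without MT rows 1 and the copies' counts added 1. For the averaged effect, DESeq2 size factors gave 1 call, scaling to mitochondrial messenger RNAs 0, the same without mt-Co1 1, and the interaction had 0 calls with a filter of 50 reads in 3 libraries, with the GC trend removed and scaled without mt-Co1. Scaling to mitochondrial messenger RNAs moved the median of all genes in IFN-gamma against control to -0.71. Without control library 2 and combined library 1 together, IFN-gamma against control, the averaged effect and the interaction each had 0. Leaving out 1 library gave 0 to 6 calls for the averaged effect and 0 to 1 for the interaction. Apart from settings whose construction shows it (fewer or more genes tested, fewer libraries), the cause was not tested.

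With the replicate number as a block the averaged effect had 1 call, mt-Tp, and mt-Tn was lost; no other count of members changed. The block also ended the calls of Trit1 (adjusted p = 0.0706), Mettl15 (0.075) and Mtrf1 (0.0836) and kept Grsf1 (0.0385). Numbers did not pair the libraries: correlations of deviations between same-numbered libraries ran from -0.547 to 0.261, with 5 of 18 over 0.1.

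Counts over all genes moved more. Over the settings other than scaling to mitochondrial RNAs, Remodelin against control had 22 to 283 calls (main 114), combined against IFN-gamma 24 to 292 (49), IFN-gamma against control 0 to 52 (2), combined against Remodelin 0 to 6 (0), the averaged effect 245 to 1406 (949) and the interaction 0 to 19 (1). Leaving out 1 library gave 20 to 121, 10 to 26, 1 to 2, 0 to 0, 298 to 1960 and 0 to 1. Depth limits the transfer RNAs with few reads.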
